A study of Mus musculus with 16 samples.

Results

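10 genes of hepatic insulin action were followed in RNA-Seq libraries of mouse liver: the insulin receptor Insr, its substrates Irs1 and Irs2, the adaptor Grb14, the phosphoinositide 3-kinase subunit Pik3r1, the kinase Akt2, the transcription factor Foxo1, the coactivator Ppargc1a and the IGF binding proteins Igfbp1 and Igfbp2. They were chosen by symbol. All 10 were found among the 50559 symbols of the table, and all 10 passed the filter on low counts that left 18335 genes to test.

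The 16 libraries fell into 4 groups of 4, all from male C57BL/6J mice that were 6 weeks old when a diet of 10 weeks began. LFD mice (called chow in the labels) and HFD mice, on a low-fat and a high-fat diet, both received a luciferase control siRNA at 10 mg/kg every 2 weeks and the methylcellulose vehicle by gavage during the last 4 weeks. HFD + siRNA mice ate the high-fat diet and received, with the same vehicle, 20 mg/kg of an siRNA against ketohexokinase (KHK), the enzyme that phosphorylates fructose, linked to a sugar ligand that delivers it to hepatocytes. HFD + Inhib mice ate the high-fat diet and received the control siRNA and, by gavage 2 times a day, the KHK inhibitor PF-06835919 at 15 mg/kg per dose, an agent that reaches the whole body. The methods state that mice were injected with saline or insulin through the vena cava shortly before the livers were collected, and the labels do not say which library came from which injection. Acute insulin exposure therefore cannot be told apart from differences between libraries of 1 group, nor, if it was uneven between groups, from the differences between groups.

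Insulin binds its receptor on hepatocytes, which phosphorylates IRS1 and IRS2, which in turn recruit phosphoinositide 3-kinase and activate AKT2. AKT2 phosphorylates FOXO1 and keeps it out of the nucleus, so that genes which FOXO1 drives in the fasted liver, among them Igfbp1, Irs2 and the gluconeogenic genes, are turned down after a meal. Igfbp1 mRNA is for that reason a common readout of hepatic insulin action, Grb14 restrains the receptor, and PPARGC1A is a coactivator that fasting and glucagon induce.

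The promoter of Igfbp1 is shown because it holds the best known element of this kind. RefSeq promoter windows of 250 bases before to 50 after the start site (GRCm38.p6) were found for 9 of the 10 genes, 14 windows in all, and not for Insr. The 4 motifs were chosen with the results known and searched on both strands: GTAAACA, the usual forkhead site, CAAAACAA and TATTTTG, which form the element of Igfbp1, and AAACAA, which lies within CAAAACAA. The lines give the bases up to the start site, 5′ to 3′ on the strand of the gene, with the matches in capitals, as an 18-base stretch for Igfbp1 that joins both motifs and as the reverse complement of CAAAACAA for Irs2 and Irs1.
Igfbp1 (chr11:7197537-7197786, + strand): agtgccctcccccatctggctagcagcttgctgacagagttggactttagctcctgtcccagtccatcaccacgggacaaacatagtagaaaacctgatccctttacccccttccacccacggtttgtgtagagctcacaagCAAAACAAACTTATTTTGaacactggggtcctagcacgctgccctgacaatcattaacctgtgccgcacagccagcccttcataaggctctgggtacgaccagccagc
Irs2 (chr8:11008930-11009007, - strand): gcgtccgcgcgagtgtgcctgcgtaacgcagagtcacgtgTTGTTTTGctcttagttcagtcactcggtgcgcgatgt
Irs1 (chr1:82291440-82291512, - strand): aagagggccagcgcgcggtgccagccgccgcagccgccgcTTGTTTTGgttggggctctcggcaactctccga

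CAAAACAA lay at -108 to -101 in Igfbp1, at -38 to -31 in Irs2 and at -33 to -26 in Irs1, and 2.51% of the 32851 mouse promoter windows held it. TATTTTG was found in Igfbp1 (-97 to -91) and Pik3r1 (-151 to -145) and in 4.36% of all windows. GTAAACA was in none of the 14 windows and in 3.65% of all. AAACAA was found in 6 of the 14 windows, from 5 genes (Akt2, Igfbp1, Igfbp2, Irs1 and Irs2), and in 20.68% of all windows. Akt2 alone has 4 of the 14 windows. A match is a description of these letters and not a sign of binding.

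Library totals ranged from 24317111 to 35820234 expected counts, and the lowest count of any of the 10 genes in any library was 230 (Ppargc1a in LFD 1). Levels are given as CPM, each count over the TMM-scaled total of its library, n = 4 per group, with SD. Khk itself followed the labels, at 214, 233, 349 and 269 CPM in LFD, 251, 322, 233 and 251 in HFD, 11.8, 9.14, 18.1 and 11.5 in HFD + siRNA and 112, 152, 94.6 and 120 in HFD + Inhib. The liver label was borne out by albumin (Alb), at 27701 to 67426 CPM in every library.

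Some features set libraries apart before any gene was compared. LFD 3 and HFD + Inhib 4 held the bile duct keratin Krt19 at 14.2 and 8.81 CPM, against 0.212 to 1.81 in the other 14. Krt7 (2.09 and 1.74, against at most 0.791) and Epcam (2.9 and 3.06, against at most 1.72) were above those 14 as well. The bile duct genes Sox9 (8.3 and 7.26), Spp1 (18.5 and 21.8) and Cftr (0.179 and 0.51) lay within the range of those 14. LFD 3 held the immediate early genes Egr1 at 228 CPM and Fos at 15.8, against maxima of 59.7 and 5.44 in those 14. HFD + Inhib 4 held Fos at 10.4 and Egr1 at 22.7. Expression deviated with GC content, with Spearman's rho across 8232 genes (which are not independent) of -0.0126 to 0.618 in LFD, -0.443 to -0.0741 in HFD, -0.138 to 0.545 in HFD + siRNA and -0.545 to -0.304 in HFD + Inhib. The mitochondrial share of counts was 0.0045% to 0.1472% in LFD, 0.0657% to 0.1137% in HFD, 0.0053% to 0.0453% in HFD + siRNA and 0.0766% to 0.119% in HFD + Inhib. Their part in the results was not tested beyond the values given below without those libraries and with a correction for GC content and length.

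In HFD the 2 IGF binding proteins and Irs2 were lower and Pik3r1 was higher than in LFD, of which the calls of Igfbp1 and Pik3r1 were lost in 6 and 3 of 17 alternative analyses, while the receptor, Irs1, Grb14, Akt2, Foxo1 and Ppargc1a did not pass the test. Under the KHK inhibitor Igfbp2 was 3.53-fold higher than in HFD, with a range that overlapped LFD, and Grb14 and Irs1 were lower, of which the call of Irs1 was lost in 11 of 17. None of the 10 genes passed edgeR's test between HFD + siRNA and HFD, while DESeq2 called Ppargc1a lower (-0.82, adjusted p = 0.0205). In whole liver, fewer cells that express a gene and less RNA per cell cannot be told apart, and since the labels do not say that each library came from its own mouse, the p-values measure only the spread between these libraries.

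In numbers, 4 of 10 genes passed an adjusted p of 0.05 (edgeR's quasi-likelihood test, adjusted over all 18335 genes) between HFD and LFD, 1 higher and 3 lower, where 18.4% of all tested genes passed (9.58% higher and 8.8% lower). Between HFD + Inhib and HFD 3 passed, 1 higher and 2 lower, against 18.2% of all genes (9.8% higher and 8.42% lower), and between HFD + siRNA and HFD 0 passed, against 11.7% (5.2% higher and 6.55% lower). For that last comparison 2 of the 10 were under an unadjusted p of 0.05, against 26.9% of all genes, and DESeq2 called 1, where it called 2752 of all genes against 2154 in edgeR's test. Between HFD + Inhib and HFD + siRNA 4 passed, 2 in each direction (33.8% of all genes, 17.3% higher and 16.6% lower), between HFD + siRNA and LFD 2, both lower (8.63% of all genes, 4.75% higher and 3.88% lower), and between HFD + Inhib and LFD 3, all lower (36.9% of all genes, 18.8% higher and 18.2% lower). In the comparisons of HFD + Inhib with HFD + siRNA and with LFD, the share of the 10 genes was near that of all genes. The HFD group is shared by the first 3 comparisons, so they are not independent of each other.

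The median log2 fold change of the 10 genes was -0.09 between HFD and LFD (-0.01 over all tested genes), -0.02 between HFD + siRNA and HFD (0.02) and 0.08 between HFD + Inhib and HFD (-0.00). Libraries of the compared groups did not overlap for 3, 0 and 3 of the 10 genes in these comparisons, against 20.4%, 20.6% and 23.3% of all tested genes. They did not overlap for 5 genes between HFD + Inhib and HFD + siRNA (32.4% of all), 3 between HFD + siRNA and LFD (12.8%) and 2 between HFD + Inhib and LFD (31.2%). An unadjusted p under 0.05 was reached by 5 of the 10 genes between HFD and LFD (32.7% of all), 5 between HFD + Inhib and HFD (30.9%), 4 between HFD + Inhib and HFD + siRNA (43.9%), 6 between HFD + siRNA and LFD (21.8%) and 4 between HFD + Inhib and LFD (46.4%). Per kilobase of mean transcript length Igfbp2 was the most abundant of the 10 in every group (317 CPM per kb in LFD, 84.1 in HFD), and Insr came next in all groups on the high-fat diet. With the longest transcript as the length, Igfbp1 took that second place in all 4 groups and Insr the next, so the order of these genes depends on the transcript model.

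**Figure D1:**
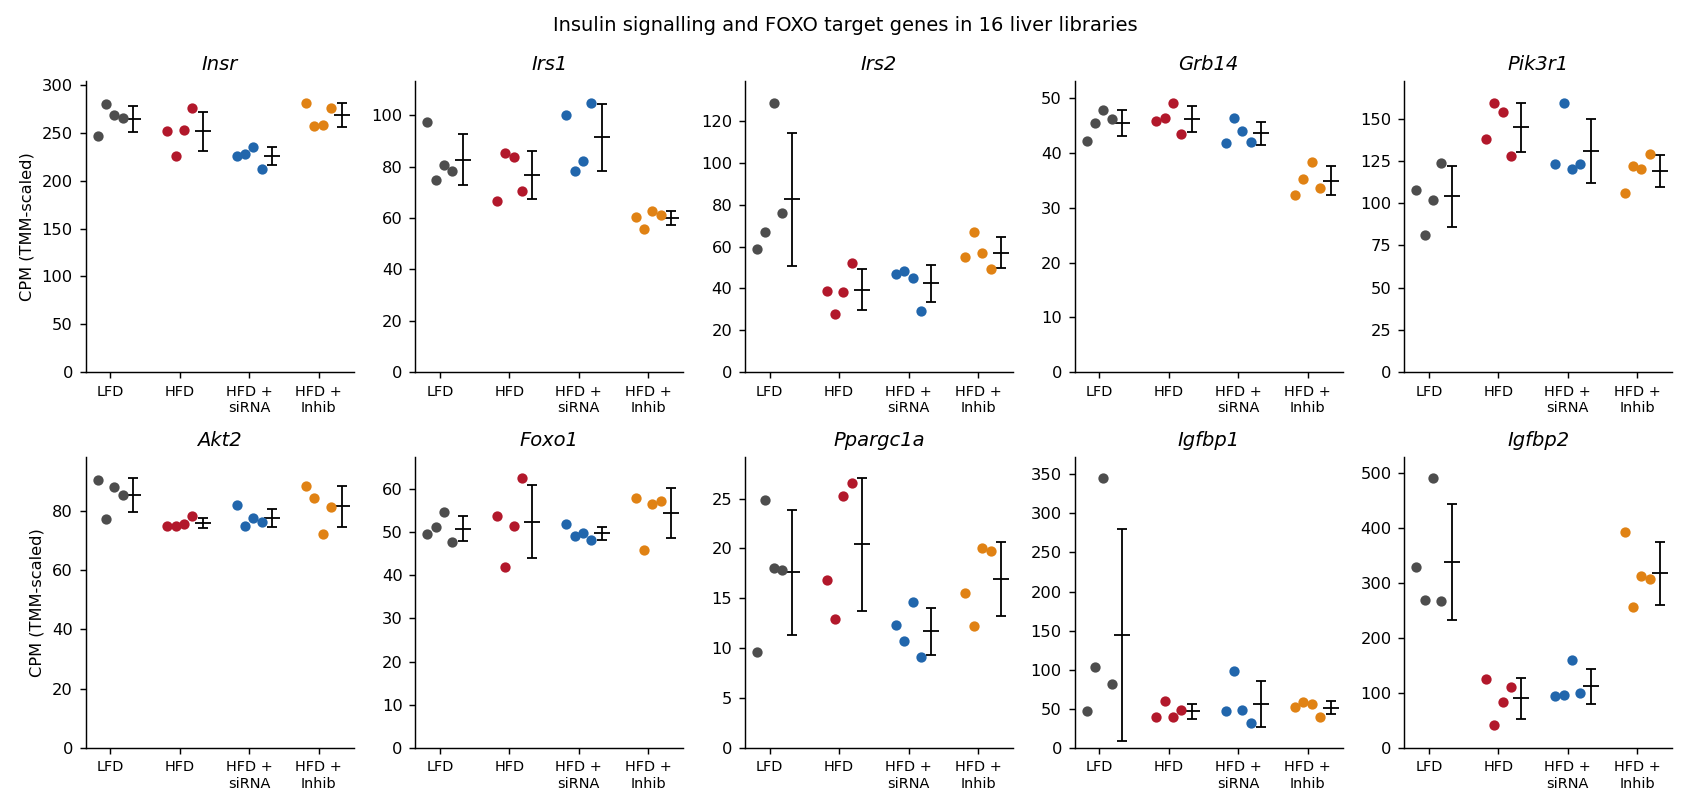
CPM of the 10 genes (y axis, from 0) in each of the 16 libraries by group (x axis), with each point 1 library, left to right replicates 1 to 4, and the black mark the mean ± SD of 4. Igfbp2 lies between 256 and 490 in LFD and HFD + Inhib and between 40.9 and 160 in HFD and HFD + siRNA, and LFD replicate 3 is the highest point of Igfbp1 (345) and Irs2 (129).

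Insr encodes the receptor through which insulin acts on hepatocytes. Its levels were 247, 280, 269 and 266 CPM in LFD and 252, 226, 253 and 276 in HFD, with overlapping groups and a log2 fold change of -0.08 (SE 0.08, adjusted p = 0.52, edgeR). HFD + siRNA libraries held 226, 228, 235 and 213, and HFD + Inhib libraries 282, 258, 259 and 276. The inhibitor group lay above the siRNA group without overlap, by 1.19-fold (log2 0.25, SE 0.08, adjusted p = 0.0177, edgeR). That difference was 0.13 (adjusted p = 0.187, edgeR) once GC content and transcript length were corrected for, and 0.24 (adjusted p = 0.0573, edgeR) without LFD 3 and HFD + Inhib 4. The siRNA group also lay below all LFD libraries (log2 -0.23, adjusted p = 0.0705 with edgeR and 0.00971 with DESeq2). Neither treated group passed the test against HFD, at -0.16 (adjusted p = 0.2) for the siRNA and 0.10 (adjusted p = 0.431) for the inhibitor (edgeR).

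Irs1, one of the 2 main docking proteins of the receptor, was lowest in the inhibitor group, with 60.3, 55.9, 62.6 and 61.1 CPM. The HFD libraries held 66.6, 85.4, 83.8 and 70.7, the HFD + siRNA libraries 100, 78.2, 82.1 and 105, and the LFD libraries 97.6, 75, 80.5 and 78.2, so that every other library lay above all 4 of the inhibitor group. HFD + Inhib was lower than HFD + siRNA by 1.52-fold (log2 -0.61, SE 0.11, adjusted p = 7.6e-04, edgeR) and lower than LFD by 1.38-fold (log2 -0.46, adjusted p = 0.00474), and the latter was lost with the replicate block and GC correction together (-0.30, adjusted p = 0.0529). The difference from HFD was smaller, at 1.28-fold (log2 -0.35, SE 0.11, adjusted p = 0.04, edgeR), and close to the threshold. It was lost in 11 of 17 alternatives, among them each of the 4 that left out a library of HFD + Inhib and those without HFD 2 or HFD 3, with adjusted p from 0.0215 to 0.121 over all 17 (edgeR and DESeq2). Irs1 did not pass the test between HFD and LFD (-0.11, adjusted p = 0.535) or between HFD + siRNA and HFD (0.25, adjusted p = 0.161, edgeR).

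Irs2, the other main docking protein in liver and a gene that FOXO1 induces, was highest in LFD. Its levels were 58.7, 67.1, 129 and 76 CPM in LFD and 39, 27.9, 38.4 and 52.2 in HFD, with no overlap, a 2.11-fold lower level in HFD (log2 -1.07, SE 0.23, adjusted p = 0.00579, edgeR). LFD 3 was the highest, and without it and HFD + Inhib 4 the log2 fold change was -0.78 (adjusted p = 0.024). HFD + siRNA libraries held 47.1, 48.4, 45.1 and 29, which overlapped HFD (0.11, adjusted p = 0.809) and lay below all LFD libraries by 1.95-fold (log2 -0.96, adjusted p = 0.0171, edgeR). Without LFD 3 that value was -0.68 (adjusted p = 0.0512) and without HFD + siRNA 4 it was -0.83 (adjusted p = 0.0526).

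HFD + Inhib libraries held Irs2 at 54.9, 67.2, 56.8 and 49.3 CPM. They lay between the LFD and the HFD means and passed the test against neither, at 0.54 (SE 0.23, adjusted p = 0.123, edgeR) against HFD and -0.54 (adjusted p = 0.0781) against LFD, which was -0.24 (adjusted p = 0.382) without LFD 3 and -0.67 (adjusted p = 0.0405) without LFD 1. Irs2 transcripts are rich in GC (56.6%). With GC content and length corrected for, the value against HFD became 0.74 (adjusted p = 0.0375, edgeR), the only 1 of 17 alternatives in which it passed. Against HFD + siRNA the value was 0.43 (adjusted p = 0.165) and became 0.71 with that correction (adjusted p = 0.0327, edgeR). With the replicate block added it was 0.71 against HFD + siRNA (adjusted p = 0.0463) and -0.07 against LFD (adjusted p = 0.851), and the value against HFD did not pass. The Irs2 locus also carries the gene 9530052E02Rik on the opposite strand, whose level was at most 0.0879 CPM in any library.

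Grb14, an adaptor that binds the activated receptor and inhibits its kinase, differed in the inhibitor group. It stood at 42.2, 45.5, 47.8 and 46.2 CPM in LFD, 45.8, 46.4, 49.2 and 43.4 in HFD and 41.9, 46.3, 44 and 42 in HFD + siRNA, against 32.3, 35.3, 38.4 and 33.6 in HFD + Inhib. All 4 inhibitor libraries lay below the other 12. The level was 1.32-fold lower than in HFD (log2 -0.41, SE 0.07, adjusted p = 0.00117, edgeR), 1.25-fold lower than in HFD + siRNA (log2 -0.32, adjusted p = 0.00355) and 1.3-fold lower than in LFD (log2 -0.38, adjusted p = 9.0e-04). Its transcripts are poor in GC (44.1%), and with the GC correction these log2 values grew in size to -0.55, -0.58 and -0.66. The other 3 groups did not pass the test against each other, with log2 values of 0.02 (HFD against LFD), -0.09 (HFD + siRNA against HFD) and -0.06 (HFD + siRNA against LFD).

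Pik3r1, the regulatory subunit that docks phosphoinositide 3-kinase to the IRS proteins, was higher in HFD than in LFD. LFD libraries held 108, 80.9, 102 and 124 CPM and HFD libraries 138, 159, 154 and 128, just above the highest LFD library, a 1.39-fold difference (log2 0.48, SE 0.13, adjusted p = 0.0159, edgeR). Without HFD 3 it was 0.45 (adjusted p = 0.0501), and without LFD 3 and HFD + Inhib 4 it was 0.47 (adjusted p = 0.0543). HFD + siRNA libraries held 123, 159, 120 and 123 and HFD + Inhib libraries 106, 122, 120 and 129, and neither passed the test against HFD (-0.14, adjusted p = 0.51, and -0.28, adjusted p = 0.143, edgeR) or against LFD (0.34, adjusted p = 0.115, and 0.20, adjusted p = 0.226). With the GC correction the inhibitor difference was -0.38 against HFD (adjusted p = 0.0249), -0.33 against HFD + siRNA (adjusted p = 0.0363) and -0.02 against LFD (adjusted p = 0.911). Without it the difference from HFD + siRNA was -0.14 (adjusted p = 0.424, edgeR), and it passed in only that 1 of 17 alternatives.

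Akt2, the main AKT kinase of insulin action in liver, passed the test in 0 of the 6 comparisons. LFD libraries held 90.6, 77.4, 88 and 85.5 CPM, HFD libraries 74.8, 74.9, 75.5 and 78.4, HFD + siRNA libraries 82, 75, 77.8 and 76.2, and HFD + Inhib libraries 88.4, 84.4, 72.1 and 81.4. The HFD libraries lay lower than 3 of the 4 LFD libraries, with a log2 fold change of -0.17 (95% confidence interval -0.32 to -0.02, adjusted p = 0.127, edgeR). Over the 17 alternatives that value ranged from -0.21 to -0.01, with adjusted p from 0.062 to 0.897 (edgeR and DESeq2). Against the siRNA group the inhibitor group was at 0.07 (adjusted p = 0.497, edgeR), and with the GC correction it was above by 0.25 (adjusted p = 0.00453). Of the 50-base words of Akt2 transcripts 9.76% also occur in the pseudogene Akt2-ps, whose mean was 1.4 to 1.78 CPM in the 4 groups, so its reads could have been divided between them.

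Foxo1, the factor that AKT2 restrains, also passed in 0 of 6 comparisons. Its levels were 49.6, 51.1, 54.7 and 47.8 CPM in LFD, 53.7, 42, 51.4 and 62.5 in HFD, 51.8, 49, 49.8 and 48.1 in HFD + siRNA and 58, 45.9, 56.5 and 57.3 in HFD + Inhib, and all groups overlapped. Log2 fold changes lay between -0.08 and 0.13, with 95% confidence intervals that reached from -0.28 to 0.34 (edgeR). mRNA does not show the phosphorylation or the place of FOXO1 in the cell, through which insulin acts on it.

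Ppargc1a, which encodes the coactivator PGC-1α, had the lowest counts of the 10 genes. Its levels were 9.64, 24.9, 18 and 17.8 CPM in LFD, 16.8, 12.9, 25.3 and 26.6 in HFD, 12.3, 10.7, 14.6 and 9.08 in HFD + siRNA and 15.5, 12.2, 20 and 19.7 in HFD + Inhib. HFD + siRNA was the lowest group, and 1 of its libraries lay above the lowest HFD library. The difference from HFD was -0.80 (SE 0.27, 95% confidence interval -1.33 to -0.28, adjusted p = 0.0616, edgeR), which did not pass the threshold. It passed in 4 of 17 alternatives, with DESeq2 (adjusted p = 0.0205), with a fit of these 2 groups alone (adjusted p = 0.0386), with a minimum of 10 counts in every library (adjusted p = 0.0498) and without HFD 2 (-0.97, adjusted p = 0.0297), and the adjusted p ranged from 0.0205 to 0.174 over all 17.

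Igfbp1 is a secreted protein that binds IGF1, and insulin represses its transcription through FOXO1. LFD libraries ranged widely, at 47.3, 104, 345 and 81.5 CPM, above the 38.9, 59.2, 39.5 and 48.3 of HFD except that LFD 1 lay within the HFD range. The mean was 144 ± 136 in LFD and 46.5 ± 9.5 in HFD, and the fold change was 3.11-fold (log2 -1.64, SE 0.47, adjusted p = 0.0234, edgeR). LFD 3 carried much of it, since without that library the log2 value was -0.73 (adjusted p = 0.149). It also missed the threshold without HFD 1 (adjusted p = 0.0569), HFD 3 (adjusted p = 0.0684) or HFD 4 (adjusted p = 0.0563).

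The HFD + siRNA libraries held Igfbp1 at 47, 98.6, 47.9 and 31.8 CPM and the HFD + Inhib libraries at 52.3, 58, 56.5 and 39. Both overlapped HFD, with log2 values of 0.28 (95% confidence interval -0.62 to 1.17, adjusted p = 0.746) and 0.15 (-0.75 to 1.04, adjusted p = 0.869, edgeR). The inhibitor group was lower than LFD by 2.81-fold (log2 -1.49, SE 0.46, adjusted p = 0.0192, edgeR), a value that became -0.59 (adjusted p = 0.171) without LFD 3 and -1.38 (adjusted p = 0.0555) without HFD + Inhib 4. The siRNA group was at -1.36 against LFD (adjusted p = 0.0826) and passed without LFD 1 (-1.66, adjusted p = 0.0271) or HFD + siRNA 2 (-1.79, adjusted p = 0.0356), while without LFD 3 it was -0.47 (adjusted p = 0.447). LFD 3, the library with the highest Igfbp1, was also the one with the highest Krt19, Egr1 and Fos, and their part in its Igfbp1 level was not tested.

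Igfbp2, another IGF binding protein that liver secretes, had the largest fold change of the 10 genes for HFD against LFD, HFD + Inhib against HFD, HFD + Inhib against HFD + siRNA and HFD + siRNA against LFD, and not in the other 2 comparisons. LFD libraries held 328, 269, 490 and 266 CPM and HFD libraries 125, 40.9, 83.6 and 110, with every LFD library more than 2 times the highest HFD library. The means were 338 ± 105 and 89.8 ± 36.8, a 3.77-fold lower level in HFD (log2 -1.91, SE 0.29, adjusted p = 6.3e-04, edgeR). HFD + siRNA libraries held 94.8, 95.4, 160 and 99.3, close to HFD (0.32, 95% confidence interval -0.23 to 0.88, adjusted p = 0.502) and below LFD by 3.01-fold (log2 -1.59, adjusted p = 0.00283). HFD + Inhib libraries held 393, 256, 313 and 306, all above every HFD and HFD + siRNA library.

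The inhibitor group exceeded HFD by 3.53-fold (log2 1.82, SE 0.29, adjusted p = 3.8e-04, edgeR) and HFD + siRNA by 2.82-fold (log2 1.49, SE 0.29, adjusted p = 9.7e-04) in Igfbp2. It overlapped LFD, with a log2 difference of -0.10 (95% confidence interval -0.65 to 0.46, adjusted p = 0.818), which turned to 0.14 without LFD 3 and to 0.23 with the GC correction. In order of the means the groups were LFD, HFD + Inhib, HFD + siRNA and HFD, and only the step from HFD + Inhib to HFD + siRNA passed the test between neighbours. All 4 calls of Igfbp2 stayed past the threshold in all 17 alternatives, with log2 values of -2.12 to -1.67 (HFD against LFD), 1.58 to 2.02 (HFD + Inhib against HFD), 1.39 to 1.76 (HFD + Inhib against HFD + siRNA) and -1.82 to -1.36 (HFD + siRNA against LFD).

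**Figure D2:**
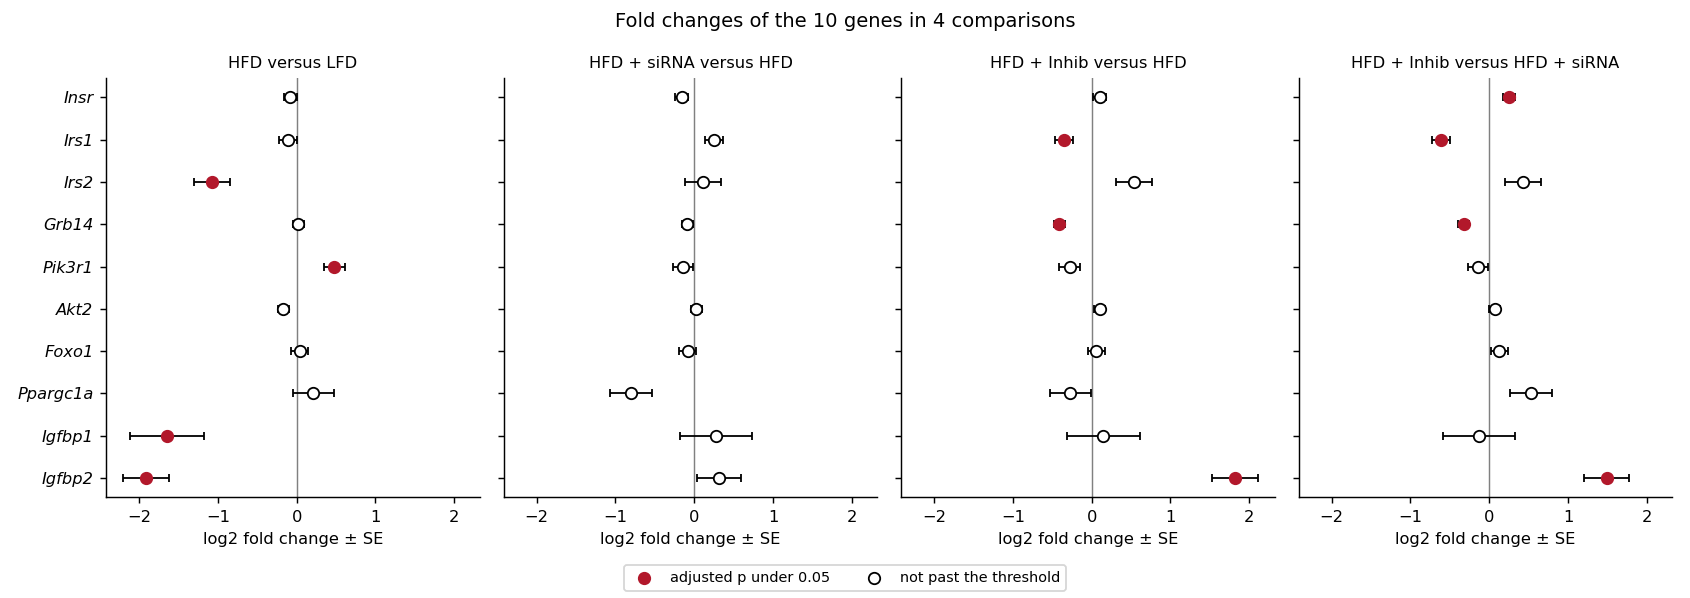
Log2 fold change ± SE (x axis) of the 10 genes (y axis) in 4 comparisons of 4 against 4 libraries, with filled points past an adjusted p of 0.05 in edgeR's test and open points not past it. In the comparisons that hold the HFD group, filled points are Irs2, Pik3r1, Igfbp1 and Igfbp2 for HFD against LFD, none for HFD + siRNA against HFD, and Irs1, Grb14 and Igfbp2 for HFD + Inhib against HFD, where Igfbp2 is at 1.82.

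Further genes of the pathway came from lists of fixed symbols and were tested in the same fit. Of 39 tested genes of insulin signalling beside the 10, 9 passed between HFD and LFD, 3 higher and 6 lower (18.4% of all genes). Pik3r3, a regulatory subunit of the kinase, rose by 0.77 (4.59 ± 1.52 against 2.7 ± 0.554 CPM, adjusted p = 0.0429, edgeR). The adaptor Sh2b2 fell by 1.33 (1.54 ± 0.381 against 3.89 ± 2.31 CPM, adjusted p = 0.0114), with LFD 1 far above the other LFD libraries at 7.29, and the translation repressor Eif4ebp1 fell by 0.77 (adjusted p = 0.012). Without LFD 3 and HFD + Inhib 4 the count was 5, 1 higher and 4 lower, while the count over all tested genes fell from 3370 to 1745, which is also the background of the further counts between HFD and LFD without these libraries.

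Under the siRNA 5 of the 39 passed against HFD, 1 higher and 4 lower, a share near the 11.7% of all genes. Sos1, which couples the receptor to RAS, fell by 0.67 (43.8 ± 5.83 against 69.7 ± 6.27 CPM, adjusted p = 0.00189, edgeR) and the S6 kinase Rps6kb1 by 0.38 (adjusted p = 0.0382). The adaptor Grb7, named after its values were seen, rose by 0.35 (adjusted p = 0.0337). Under the inhibitor 7 of the 39 passed against HFD, 5 higher and 2 lower, again a share near that of all genes (18.2%). The ubiquitin ligase Cblb rose by 0.70 (32.2 ± 3.62 against 19.9 ± 3.43 CPM, adjusted p = 0.013), Eif4ebp1 by 0.64 (adjusted p = 0.027) and the kinase Mtor by 0.40 (adjusted p = 0.0136), while Pik3r3 fell by 0.79 (adjusted p = 0.0389). Between HFD + Inhib and HFD + siRNA 19 of the 39 passed, 10 higher and 9 lower (33.8% of all genes), among them Sos1, which was 1.99-fold higher with the inhibitor (87.1 ± 11.1 against 43.8 ± 5.83 CPM, adjusted p = 8.3e-06).

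Of 23 genes that restrain insulin signalling, 5 passed between HFD and LFD, 2 higher and 3 lower, a share near the 18.4% of all genes. Prkcd, a kinase that acts on IRS proteins, fell by 0.63 (8.26 ± 0.538 against 12.8 ± 1.91 CPM, adjusted p = 0.00256, edgeR) and the AKT phosphatase Phlpp2 by 0.59 (adjusted p = 0.012), and Enpp1 rose by 0.29 (adjusted p = 0.0472). Inppl1, named after its values were seen, fell by 0.28 (adjusted p = 0.0421). The count was 2, both lower, with the GC correction (2693 of 15858 genes) and also without LFD 3 and HFD + Inhib 4 (1745 genes).

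The siRNA group had 2 of the 23 past the threshold against HFD (11.7% of all genes), both lower, among them Socs6, a suppressor of cytokine and insulin signals (log2 -0.45, 10.4 ± 0.696 against 14.1 ± 0.948 CPM, adjusted p = 0.013, edgeR). The inhibitor group had 4 of 23 past the threshold, a share near the 18.2% of all genes (9.8% higher and 8.42% lower). All 4 were lower, and the median of the list was -0.13 against -0.00 for all genes. Ptprf, a receptor phosphatase that can dephosphorylate the insulin receptor, stood at 186, 195, 170 and 181 CPM in HFD + Inhib and at 324, 326, 303 and 289 in HFD, a 1.7-fold difference (log2 -0.76, SE 0.10, adjusted p = 8.3e-05). Ptpre was lower by 1.47-fold, Enpp1 by 1.28-fold and Phlpp1 by 1.26-fold (adjusted p = 0.00827, 0.0179 and 0.0169, edgeR). Ptprf was also lower in HFD + Inhib than in HFD + siRNA by 1.79-fold and than in LFD by 1.81-fold (adjusted p = 2.0e-05 and 1.4e-05).

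The list of other FOXO targets held 38 symbols, of which 36 were tested. Against LFD 5 passed in HFD, 4 higher and 1 lower, with a list median of -0.04, where 18.4% of all genes passed. The growth arrest gene Gadd45a rose 2.33-fold (6.01 ± 1.59 against 2.59 ± 0.93 CPM, adjusted p = 0.0149, edgeR), the NAD synthesis enzyme Nampt 1.61-fold (adjusted p = 0.00265), the sestrin Sesn3 1.39-fold (adjusted p = 0.00347) and the mitophagy gene Bnip3 1.38-fold (adjusted p = 0.0481), and the autophagy gene Map1lc3b, named after its values were seen, fell by 0.32 (adjusted p = 0.0494). The count was 2, both higher, without LFD 3 and HFD + Inhib 4 (1745 genes over all). With the siRNA 3 fell against HFD, where 11.7% of all genes passed: Bnip3 by 0.65 (adjusted p = 0.0142), Nampt by 0.64 (adjusted p = 0.00644) and the lipid transfer protein Mttp by 0.52 (adjusted p = 0.0152, edgeR).

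With the inhibitor 12 of the 36 passed against HFD, 9 higher and 3 lower, with a list median of 0.17, where 18.2% of all genes passed. Pdk4, which shuts off pyruvate oxidation, stood at 104, 292, 294 and 74.3 CPM in HFD + Inhib and at 9.31, 34, 21.3 and 8.01 in HFD, a 10.5-fold difference (log2 3.39, SE 0.57, adjusted p = 5.3e-04, edgeR). Gadd45b was at 2.4, 9.09, 5.25 and 5.31 CPM against 1.36, 0.95, 1.37 and 1.09 (4.62-fold, adjusted p = 0.0014). The lipase inhibitor Angptl4 was at 108, 118, 113 and 75.3 against 43.2, 23.9, 34.6 and 44.2 (2.85-fold, adjusted p = 0.0182), and the lipase Pnpla2 was 2.12-fold higher (adjusted p = 2.4e-04). No library of the compared groups overlapped in any of these 4 genes. Pdk4, Angptl4 and Cat are known targets of the fatty acid receptor PPARα as well as of FOXO factors, so the list is not particular to FOXO.

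The 2 FOXO-driven genes of glucose output most used as readouts did not pass the test in any of the 6 comparisons. G6pc, the last enzyme of glucose release, stood at 368, 329, 537 and 490 CPM in LFD, 175, 358, 340 and 164 in HFD, 315, 502, 270 and 234 in HFD + siRNA and 307, 404, 286 and 198 in HFD + Inhib. The largest of its log2 values was -0.73 between HFD and LFD (SE 0.29, adjusted p = 0.0918, edgeR). Pck1, which opens gluconeogenesis, had a mean of 1557 ± 393 CPM in LFD, 1385 ± 262 in HFD, 1524 ± 343 with the siRNA and 1185 ± 289 with the inhibitor, with log2 values from -0.39 to 0.14. Both were named after earlier results of these data were known.

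Of 10 genes that insulin induces in liver, mostly of fatty acid synthesis, 2 rose between HFD and LFD, a share near the 18.4% of all genes, namely Elovl6 by 0.72 (adjusted p = 0.0482) and Insig1 by 0.52 (adjusted p = 0.0451, edgeR), and the count was 0 without LFD 3 and HFD + Inhib 4 (1745 genes over all). With the siRNA 7 of the 10 fell against HFD and none rose, where 11.7% of all genes passed (6.55% lower), with a list median of -1.09 against 0.02 over all genes. The desaturase Scd1 was at 2718, 2282, 1630 and 1953 CPM against 4915, 9687, 11596 and 8341 (4.02-fold, log2 -2.01, SE 0.27, adjusted p = 4.3e-04). The synthase Fasn was 3.2-fold lower (adjusted p = 0.00109) and the elongase Elovl6 3.16-fold lower (adjusted p = 9.8e-04). Pnpla3 was at 0.293 to 0.384 CPM, or 9 to 12 counts, in the siRNA libraries and at 1.69, 5.11, 1.86 and 0.665 CPM in HFD (adjusted p = 0.0339), where HFD 2 stood far above the others. With the inhibitor Scd1 alone of the 10 passed against HFD (18.2% of all genes), at 1.94-fold higher (adjusted p = 0.0178).

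The lipogenic factor Srebf1 did not pass in any of the 6 comparisons, with log2 values of 0.37 between HFD and LFD (adjusted p = 0.381), -0.03 between HFD + siRNA and HFD (adjusted p = 0.955) and -0.22 between HFD + Inhib and HFD (adjusted p = 0.632, edgeR). Scd1 in HFD + siRNA also lay below LFD, at -2.30 (adjusted p = 9.6e-05).

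Among the 11 tested other genes of the IGF system, Igf1, the growth factor that IGF binding proteins carry, rose between HFD and LFD (518 ± 46.8 against 348 ± 40 CPM, 1.49-fold, adjusted p = 0.00448, edgeR) and was the only one of them to pass there, where 18.4% of all genes passed. In HFD + siRNA against HFD the receptor Igf2r alone passed (11.7% of all genes did), at 1.17-fold higher (adjusted p = 0.0325). In HFD + Inhib against HFD 2 of the 11 passed, a share near the 18.2% of all genes. Both were lower: Igfals, which stabilizes IGF1 in serum, by 1.6-fold (35.3 ± 12 against 56.5 ± 12 CPM, adjusted p = 0.0385) and Igfbp4 by 1.37-fold (677 ± 126 against 925 ± 51.5 CPM, adjusted p = 0.0352). Neither passed without LFD 3 and HFD + Inhib 4. Igfbp2 thus rose with the inhibitor while Igfbp4 fell, and Igfbp1 did not pass the test.

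Of the partners and relatives of PGC-1α 17 were tested beside Ppargc1a. Between HFD and LFD 4 passed (18.4% of all genes), 3 higher and 1 lower: the hormone Fgf21 by 4.78-fold (7.63 ± 3.23 against 1.6 ± 0.993 CPM, adjusted p = 0.00577, edgeR), the orphan receptor Esrrg by 2.84-fold (adjusted p = 0.00868) and Ppara by 1.75-fold (adjusted p = 7.6e-04) were higher, and the respiratory factor Nrf1 was 1.37-fold lower (adjusted p = 0.00267). With the siRNA 3 fell against HFD (11.7% of all genes passed), the coactivator Lpin1 by 1.07 (adjusted p = 0.0362), the deacetylase Sirt1 by 0.40 (adjusted p = 0.0356) and Creb1 by 0.40 (adjusted p = 0.02), and 1 passed without LFD 3 and HFD + Inhib 4 (2008 genes over all, against 2154 with them). With the inhibitor the mitochondrial factor Tfam alone passed (18.2% of all genes did), 1.27-fold higher than in HFD (adjusted p = 0.0167), and the count was 0 without those libraries (2684 genes over all, against 3339 with them). Ppargc1b, the nearest relative, was 1.69-fold higher in HFD + Inhib than in HFD + siRNA (35.3 ± 4.09 against 20.9 ± 5.26 CPM, adjusted p = 0.00951).

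A list of 18 genes of cAMP signalling and immediate early response was followed because glucagon and handling also act on Igfbp1 and Ppargc1a. Between HFD and LFD 4 passed, a share near the 18.4% of all genes, with Egr1, Ier2 and Crem lower and the phosphodiesterase Pde4d higher (edgeR), and Egr1 stood at 59.7, 55.4, 228 and 13.9 CPM in LFD against 18.3 to 24 in HFD. Without LFD 3 and HFD + Inhib 4 the count was 2, both higher (1745 genes over all). The summed level of the list was 309, 379, 706 and 372 CPM in LFD, 289 to 483 in HFD, 342 to 544 in HFD + siRNA and 249 to 407 in HFD + Inhib, with Jun the most abundant member. With the siRNA 11.7% of all genes passed against HFD in edgeR's test and 26.9% had an unadjusted p under 0.05. Of the 18 genes 0 did so in either, and 0 passed with DESeq2. With the inhibitor 4 passed, a share near the 18.2% of all genes, with Nr4a2 (2.63-fold, adjusted p = 0.0115) and Pde4d (1.78-fold, adjusted p = 0.0161) higher and Pde4b (2.1-fold, adjusted p = 0.0127) and Ier2 (1.69-fold, adjusted p = 0.0475) lower.

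**Figure D3:**
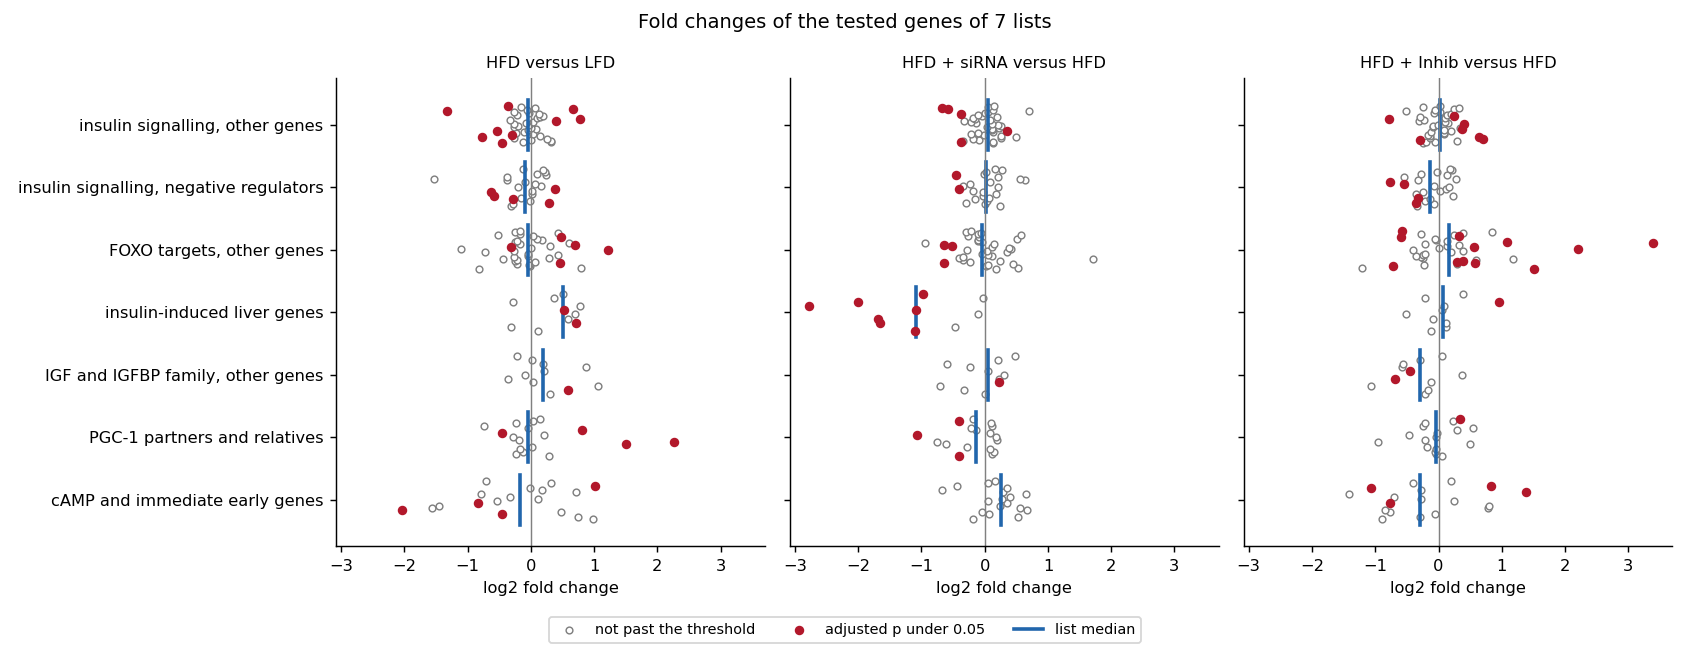
Log2 fold changes (x axis) of the tested genes of 7 lists (y axis) in 3 comparisons, with filled red points past an adjusted p of 0.05, open points not past it and the blue line the median of the list. The 7 filled points of the insulin-induced liver genes lie below 0 for HFD + siRNA against HFD (median -1.09), and Pdk4 at 3.39 is the farthest point for HFD + Inhib against HFD.

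Markers of liver cell types differed between the groups as well. Between HFD and LFD 2 of 6 hepatocyte markers were lower (Serpina1a at a log2 fold change of -0.54, adjusted p = 0.0032, and Apoa1 at -0.50, adjusted p = 0.0333, edgeR). Of all tested genes 18.4% passed there, 8.8% of them all being lower. The stellate cell gene Reln (0.38, adjusted p = 0.0167), the bile duct gene Spp1 (0.62, adjusted p = 0.0313), Cela1 (0.66, adjusted p = 0.0185) and, of the adipocyte list, Cidec (3.04, adjusted p = 2.6e-04) and Cfd (2.29, adjusted p = 0.0339) were higher. Between HFD + siRNA and HFD, where 11.7% of all tested genes passed, the markers past the threshold were Serpina1a (0.51) and Cela1 (0.65), higher, and Cidec (-1.12), lower. The summed level of 6 hepatocyte markers, of which Alb was the most abundant, was 38042 to 41595 CPM in HFD + Inhib, 55655 to 69719 in HFD, 63403 to 74685 in HFD + siRNA and 70065 to 88412 in LFD, and 3 of the 6 fell with the inhibitor against HFD (Ttr by 0.93, Alb by 0.77 and Cps1 by 0.53, edgeR). The 7 stellate cell markers, led by Reln, summed to 285 to 324 CPM in HFD + Inhib and 371 to 458 in HFD, and 3 fell. Of 7 macrophage markers (led by Clec4f) 1 fell, of 6 endothelial markers (led by Stab2) 1 rose, of 6 lymphocyte markers (led by Cd79a, summing to 1.35 to 2.26 CPM against 2.2 to 5.29) 3 fell, and of 6 bile duct markers (led by Spp1) 0 passed in edgeR's test, 0 at an unadjusted p under 0.05 and 0 with DESeq2. Of all tested genes 18.2% passed between HFD + Inhib and HFD (9.8% higher and 8.42% lower) and 30.9% had an unadjusted p under 0.05. The shares of the macrophage and endothelial lists were near that 18.2%. The adipocyte list summed to 49.8 to 117 CPM in HFD + Inhib and 5.73 to 23 in HFD, nearly all of it in HFD + Inhib from Cidec and Cfd, while its defining genes Adipoq, Plin1, Lep and Retn were at most 0.539 CPM in any library.

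The pancreas list was likewise 1 gene, Cela1 (4.51 to 6.96 CPM in HFD + Inhib against 12.8 to 19.1 in HFD), with Prss1, Ins1 and Ins2 at 0 in all 16 libraries, and the 5 muscle genes summed to at most 0.508 CPM. The part of these markers in the differences of the 10 genes was not tested. In HFD + Inhib against HFD, Grb14 and Irs1 were lower, as these hepatocyte markers were, and Igfbp2 was higher. Of the 6 hepatocyte markers, 5 were lower in HFD + Inhib than in HFD + siRNA and all 6 were lower than in LFD, comparisons in which Grb14 and Irs1 were lower too. Of all tested genes 33.8% (16.6% lower) passed in the former and 36.9% (18.2% lower) in the latter.

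Across all 16 libraries the genes whose log2 CPM was most like that of each called member were named by Pearson's r among 12409 genes, as a description, since the libraries share group and composition. For Igfbp2 they were Smad9 (0.892), Elk4 (0.889) and Adam11 (0.887), for Irs2 Eif4ebp3 (0.902) and Kif3c (0.895), and for Igfbp1 Ppp1r15a (0.877), Eif4ebp3 (0.812) and Kif3c (0.795). Eif4ebp3 and Kif3c were thus named for both Irs2 and Igfbp1 by Pearson's r. By Spearman's rho they ranked 7 and 17 for Irs2 and 57 and 50 for Igfbp1. For Irs1 they were Atf5 (0.922), Wwc1 (0.918) and Phkg2 (0.903), for Grb14 Ccnf (0.944), Sdr9c7 (0.937) and Ptprk (0.936), for Insr Cdc14b (0.913), Mrps9 (0.889) and Hnrnpa1 (0.884), and for Pik3r1 Ankrd13c (0.833), Gm51616 (0.828) and Chic1 (0.788). By Spearman's rho the first place was unchanged for Insr and Irs1 and passed to another gene for the other 5.

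**Figure D4:**
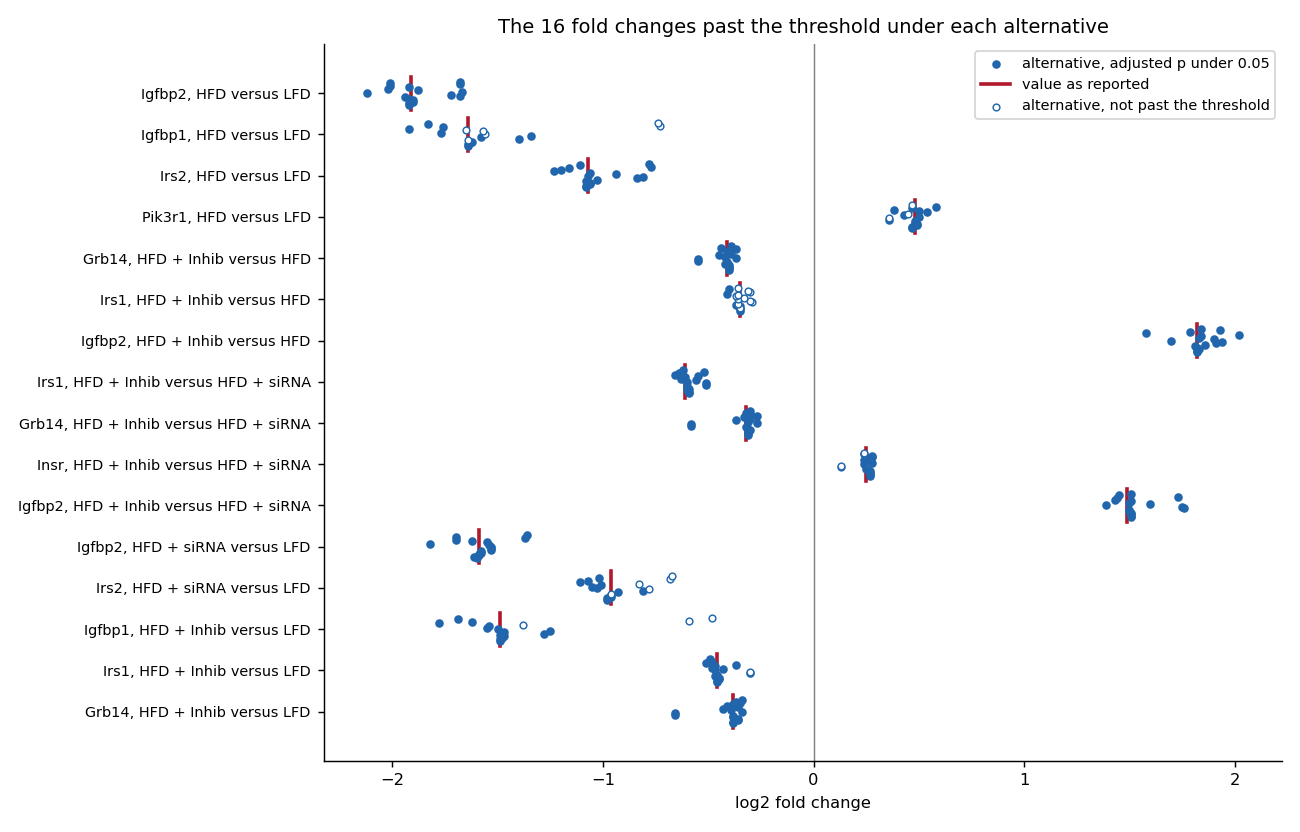
Log2 fold change (x axis) of the 16 pairs of gene and comparison that passed the threshold (y axis), with the red line the value as reported and each blue point 1 of 17 alternatives, filled where the adjusted p stayed under 0.05. All points keep the side of 0, the points of Igfbp2 and Grb14 are all filled, and Irs1 for HFD + Inhib against HFD has 11 open points.

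Of the 60 pairs of gene and comparison 16 passed the threshold. All 17 alternatives kept 9 of these, which were the 4 of Igfbp2, the 3 of Grb14, Irs2 for HFD against LFD and Irs1 for HFD + Inhib against HFD + siRNA. The other 7 were lost in at least 1 alternative and 0 changed sign. The plot of the 16 fold changes under each alternative shows the spread, which was widest for Igfbp1 against LFD, where the values without LFD 3 stand apart.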

How the data were processed

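The deposited table holds expected counts, estimated counts of reads per gene that the authors made with RSEM after alignment with STAR to mm39, per the labels, with versions not given in the sources used here; 15.089% of the values were not whole. The study's methods name another sequencing assay, so the library type is open, and whether counting used strand is not stated, so that reads of Foxo1, Irs1 and Irs2 cannot be told apart from those of genes on the opposite strand. All 16 columns were matched to samples by the library name in the labels' description.

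Counts were rounded and tested with edgeR 4.0.16 in R 4.3.3 (quasi-likelihood test, TMM scaling, filter at 10 counts in enough libraries and 15 in total, 1 fit of all 16 libraries), with Benjamini-Hochberg adjustment over 18335 genes and a threshold of 0.05. The alternatives were DESeq2 1.42.0, RLE size factors, other filters, a fit of 2 groups, a replicate block, a correction for GC content and length (15858 genes, GENCODE M21 transcripts), leaving out each library and, added after the data were seen, leaving out LFD 3 and HFD + Inhib 4. The edgeR and DESeq2 fits were tested on counts simulated with the same spread for every gene. The simulation held no deviation with GC content and no library that stood apart, so it does not show how the fits handle these features. Totals were 24317111 to 35820234 counts, and no libraries of the same group were duplicates (chi-square per gene 21.1 to 158 over the 24 pairs within groups).

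The 10 genes and all lists were chosen with earlier results of these data known. For each list and comparison the text names up to 4 genes past the threshold with the largest fold change, and others where it says so, and for likeness the 3 genes with the highest r. Some genes that these rules would name are not reported here.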

Additional observations from a re-analysis of the deposited data

Results flagged for a closer look

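Of the 40 sets of 4 libraries formed by the 10 genes and 4 groups, 4 held a library whose gap to its nearest neighbour took up more of the range of the group than Dixon's test allows, and chance alone flags about 1 in 20. Irs2 was lowest in HFD + siRNA replicate 4, at 29 CPM against 45.1 to 48.4 in the other 3. Pik3r1 was highest in HFD + siRNA replicate 2, at 159 CPM against 120 to 123. Foxo1 was lowest in HFD + Inhib replicate 2, at 45.9 CPM against 56.5 to 58. Igfbp2 was highest in HFD + siRNA replicate 3, at 160 CPM against 94.8 to 99.3.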

How the results depend on the processing

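The 9 called fold changes named in the report kept direction and threshold in all 17 alternatives, 7 were lost in at least 1 with the values given there, and 0 reversed. Of those not called, 10 passed in at least 1 alternative and 16 changed sign. The causes were not tested. Of 1728 alternative counts over the lists, 1392 were within 1.5 times the reported count.

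Between HFD and LFD, 2 of the 10 genes and 1745 tested genes (3370 as reported) passed without LFD 3 and HFD + Inhib 4, and 2 and 1287 at an adjusted p of 0.01. Between HFD + siRNA and HFD, 1 of the 10 genes passed with DESeq2 (2752 tested genes), 1 with a minimum of 10 counts in every library (2220) and 1 with a fit of 2 groups (2604), and 689 tested genes passed at 0.01 (2154 at 0.05). At 0.01, 1733 tested genes passed between HFD + Inhib and HFD (3339 at 0.05), 3711 between HFD + Inhib and HFD + siRNA (6204) and 4123 between HFD + Inhib and LFD (6767), and 4398 in the last without LFD 3 and HFD + Inhib 4. Between HFD + siRNA and LFD (1582 tested genes), 1 of the 10 genes passed in the fit of 2 groups (808 tested genes), 1 with the block and GC correction, 1 without those libraries (917) and 1 at 0.01 (566).

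Leaving out 1 library at a time gave 2 to 4 of the 10 genes and 2001 to 3691 tested genes between HFD and LFD, 0 to 1 and 1100 to 1981 between HFD + siRNA and HFD, 2 to 3 and 2532 to 3050 between HFD + Inhib and HFD, 4 to 4 and 4934 to 6251 between HFD + Inhib and HFD + siRNA, 1 to 3 and 965 to 1456 between HFD + siRNA and LFD, and 2 to 4 and 5477 to 6830 between HFD + Inhib and LFD. Counts of tested genes moved by over 1.5 times for HFD against LFD without LFD 3 (2001), HFD 3 (2013), LFD 1 (2147) or HFD 4 (2183), for HFD + siRNA against HFD without HFD 3 (1100), HFD + siRNA 4 (1162), HFD 4 (1328), HFD + siRNA 3 (1391) or HFD + siRNA 1 (1423), and for HFD + siRNA against LFD without HFD + siRNA 3 (965), 4 (992) or 1 (1052).

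None of the fold changes that reversed had passed. With the GC correction these were Grb14 for HFD against LFD (-0.11) and HFD + siRNA against HFD (0.03), Akt2 for HFD + siRNA against HFD (-0.09) and HFD + Inhib against LFD (0.15), Foxo1 for HFD + siRNA against LFD (0.03), and for HFD + Inhib against LFD Insr (-0.08), Pik3r1 (-0.02) and Igfbp2 (0.23). With the replicate block added the same 8 were -0.10, 0.03, -0.09, 0.15, 0.03, -0.09, -0.02 and 0.22, and Irs1 for HFD against LFD was 0.00. Without LFD 3 and HFD + Inhib 4, Foxo1 for HFD + siRNA against LFD was 0.01 and Igfbp2 for HFD + Inhib against LFD 0.15. With 1 library left out, ranges that crossed 0 were -0.01 to 0.06 (Grb14) and -0.05 to 0.14 (Foxo1) for HFD against LFD, -0.03 to 0.26 (Irs2), -0.01 to 0.03 (Akt2), -0.17 to 0.00 (Foxo1) and -0.16 to 0.46 (Igfbp1) for HFD + siRNA against HFD, -0.04 to 0.15 (Foxo1) for HFD + Inhib against HFD, -0.32 to 0.30 (Igfbp1) for HFD + Inhib against HFD + siRNA, and -0.01 to 0.04 (Insr), -0.26 to 0.15 (Ppargc1a) and -0.21 to 0.14 (Igfbp2) for HFD + Inhib against LFD.

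The likeness of same-numbered libraries differed between comparisons. Their correlations were -0.34 to 0.488 over 8576 genes, and in no comparison was every library closest to its own number. In HFD + Inhib against HFD they were 0.0856, 0.208, 0.488 and 0.351 for replicates 1 to 4. Each of these was above the mean with the other numbers (-0.0156, -0.0631, -0.187 and -0.104). In HFD + siRNA against LFD the same-numbered correlations were 0.157, 0.13, 0.22 and -0.34. With the replicate block 3299 tested genes passed between HFD and LFD, and of the calls of the 10 genes it ended that of Irs1 for HFD + Inhib against HFD (-0.36, adjusted p = 0.0537, edgeR).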
